A study of Homo sapiens with 8 samples.

Results

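Super-enhancers on 6 chromosomes that clear cell renal cell carcinoma often gains or loses are described here, by their H3K27ac comparison scores in 786-O and UM-RC-2 cells. Members were all super-enhancers that the authors' deposited tables name by chromosome 3, 5, 7, 8, 9 or 14. They numbered 654 of 1924, with 117 on chromosome 3, 130 on chromosome 5, 122 on chromosome 7, 125 on chromosome 8, 126 on chromosome 9 and 34 on chromosome 14. The same 654 names, with equal lengths, are in the table of each line. A further 1255 super-enhancers lie on the other 16 autosomes and serve as the comparison, and 15 on the X chromosome stand outside it.

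Both are established cell lines derived from clear cell renal cell carcinoma. The labels give 786-O the VHL change p.Gly104Alafs*55 (c.311delG) and UM-RC-2 the VHL change p.Arg82Pro (c.245G>C). Both lines were infected with lentivirus to express VHL or a construct labelled VEC, and stable cells were selected in blasticidin at 10 µg/ml. H3K27ac was measured by ChIP-seq in 1 VEC and 1 VHL library of each line, after fixation in 1% formaldehyde for 10 min. RNA-seq had 2 VEC and 2 VHL libraries, all of UM-RC-2, and nothing in the labels says that a number marks a separate culture. Whether a line is 1 clone or a pool of infected cells is not stated.

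H3K27ac is acetylation of a histone tail at active promoters and enhancers. A super-enhancer is a long stretch of closely spaced acetylated enhancers, often near genes that define the identity of a cell. VHL is part of a ubiquitin ligase that marks hypoxia-inducible factors for destruction, and its loss is a founding event of clear cell renal carcinoma. The gene lies on the short arm of chromosome 3, which these tumours lose most often, together with PBRM1, BAP1 and SETD2. Gains of the long arm of chromosome 5 and of chromosome 7 are also common, as are losses of the short arm of chromosome 9 and of the long arm of chromosome 14, while chromosome 8 can lose its short arm and gain its long arm. Copy number itself was not measured in these data.

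Each table gives a mean score per base for every region, made from the VHL library and a second library that is assumed to be VEC of the same line. The authors' scale, the order of the libraries and the depth are not stated. A positive score therefore cannot be read as more or less acetylation in VHL cells, and signs are compared only as signs. Where signs are compared between the tables, the same order of libraries in both is assumed. Each line has a single score per region, so there is no replicate error and no test of any difference between chromosomes or lines. Regions of a table share both libraries and are not replicates. Region names hold a chromosome and a running number but no start or end, so arms, neighbouring genes and sequences are not given.

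As a pool, the 654 super-enhancers looked like those of the other autosomes in both lines. In 786-O their median score was 0.0256 (quartiles -0.0463 and 0.118), against 0.0263 (quartiles -0.0437 and 0.0988) on the other autosomes. Positive scores were given to 59.6% of them (390) and to 58.2% of the others (730). In UM-RC-2 the median was -0.00181 (quartiles -0.137 and 0.148), against 0.0168 (quartiles -0.113 and 0.156), with 49.1% positive (321) against 53.5% (671). These gaps are small beside the quartiles of the scores.

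The pool hid a pattern by chromosome in UM-RC-2, while the chromosome medians of 786-O lay close together. In UM-RC-2 the chromosome medians ran from -0.145 on chromosome 7 to 0.180 on chromosome 3, a span of 0.325. In 786-O they ran from 0.0153 on chromosome 3 to 0.0346 on chromosome 14, a span of 0.0193. Among the 654 regions, differences between the 6 chromosome means took 16.6% of the sum of squares of the scores in UM-RC-2 and 0.650% in 786-O. The UM-RC-2 pattern was not particular to these chromosomes, because the other 16 autosomes gave 16.5% there. In 786-O they gave 2.63%. Some share arises even where chromosomes do not differ, and it rises with their number. The 0.650% of the 6 chromosomes in 786-O was therefore not read as a pattern. How much of the 2.63% of the other 16 arises in this way was not tested.

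**Figure D1:**
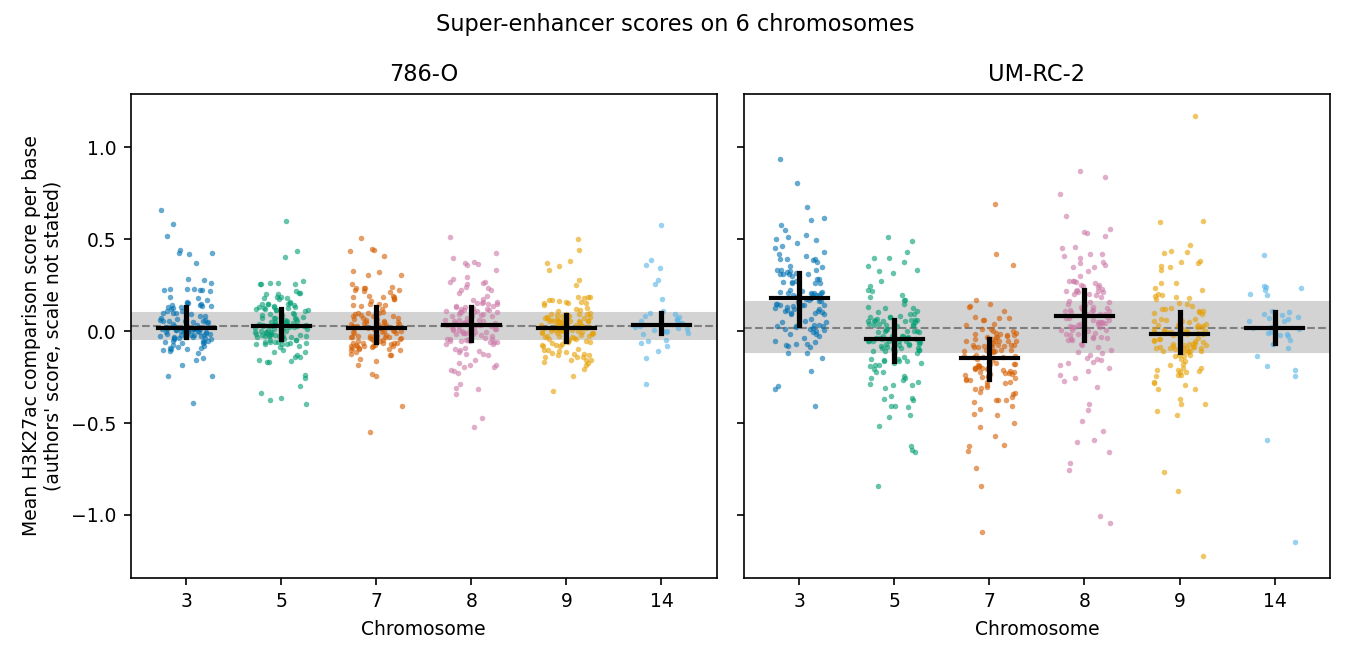
Mean H3K27ac comparison score per base (authors' score, scale not stated) for each super-enhancer on chromosomes 3, 5, 7, 8, 9 and 14 in 786-O (left) and UM-RC-2 (right), with points spread sideways at random for visibility. Black bars are the median and quartiles of a chromosome, and the grey band and dashed line are the quartiles and median of the other 16 autosomes: the 6 medians lie between 0.0153 and 0.0346 in 786-O and between -0.145 and 0.180 in UM-RC-2.

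Chromosome 3 carried high scores in UM-RC-2. Its 117 super-enhancers had a lowest score of -0.407, a median of 0.180 and a highest of 0.936 in the UM-RC-2 table, and 97 of them (82.9%) were positive. That was the largest positive share of the 22 autosomes, and the median ranked 2 from the top, after chromosome 4 at 0.203. The lower quartile, 0.0355, lay above 0, so the shift ran through most of the chromosome's regions rather than a few. In the 786-O table the same regions ran from -0.389 to 0.661 around a median of 0.0153, which ranked 14, and 72 (61.5%) were positive. The score was higher in UM-RC-2 than in 786-O for 82 of the 117 (70.1%), against 46.4% of all 1924 super-enhancers, although the scales of the tables may differ. Chromosomes 2 and 4 had similar shares, 70.5% and 74.6%.

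Chromosome 7 showed the reverse in UM-RC-2. Its 122 super-enhancers ran from -1.09 to 0.689 around a median of -0.145, the lowest of the 22 autosomes, and 18 (14.8%) were positive, the smallest share. Its upper quartile, -0.0409, lay below the lower quartile of chromosome 3, so the quartile ranges of these chromosomes did not overlap. In 786-O the regions of chromosome 7 ran from -0.549 to 0.507 around 0.0164, with 68 (55.7%) positive. The distance between the quartiles there, 0.192, was the widest of the 22 autosomes in 786-O. For 54 regions of chromosome 7 the score was positive in 786-O and negative in UM-RC-2, and the opposite held for 4. Over all 1924 super-enhancers these counts were 468 and 348.

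Chromosome 8 spread to both sides. In UM-RC-2 its 125 super-enhancers ran from -1.05 to 0.870 around a median of 0.0795, ranked 5, with 83 (66.4%) positive. Scores of at least 0.5 were given to 8 of them and scores of at most -0.5 to another 8, and their SD over regions, 0.315, was the largest of the 6 chromosomes. In 786-O the median was 0.0345, the range -0.522 to 0.512, and 78 (62.4%) were positive.

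Chromosomes 5 and 9 lay slightly below 0 in UM-RC-2, and chromosome 14 near 0. The 130 super-enhancers of chromosome 5 ran from -0.844 to 0.510 around -0.0432 in UM-RC-2, ranked 18, with 51 (39.2%) positive. In 786-O they ran from -0.395 to 0.597 around 0.0293, with 78 (60.0%) positive. The 126 of chromosome 9 ran from -1.22 to 1.17 around -0.0153 in UM-RC-2, with 53 (42.1%) positive, and from -0.325 to 0.4996 around 0.0181 in 786-O, with 71 (56.3%) positive. Chromosome 9 thus held both the lowest and the highest UM-RC-2 score of all 654 regions, and no score of 0.5 in size in 786-O. The 34 of chromosome 14 ran from -1.15 to 0.411 around 0.0176 in UM-RC-2, with 19 (55.9%) positive, and from -0.286 to 0.578 around 0.0346 in 786-O, with 23 (67.6%) positive.

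**Figure D2:**
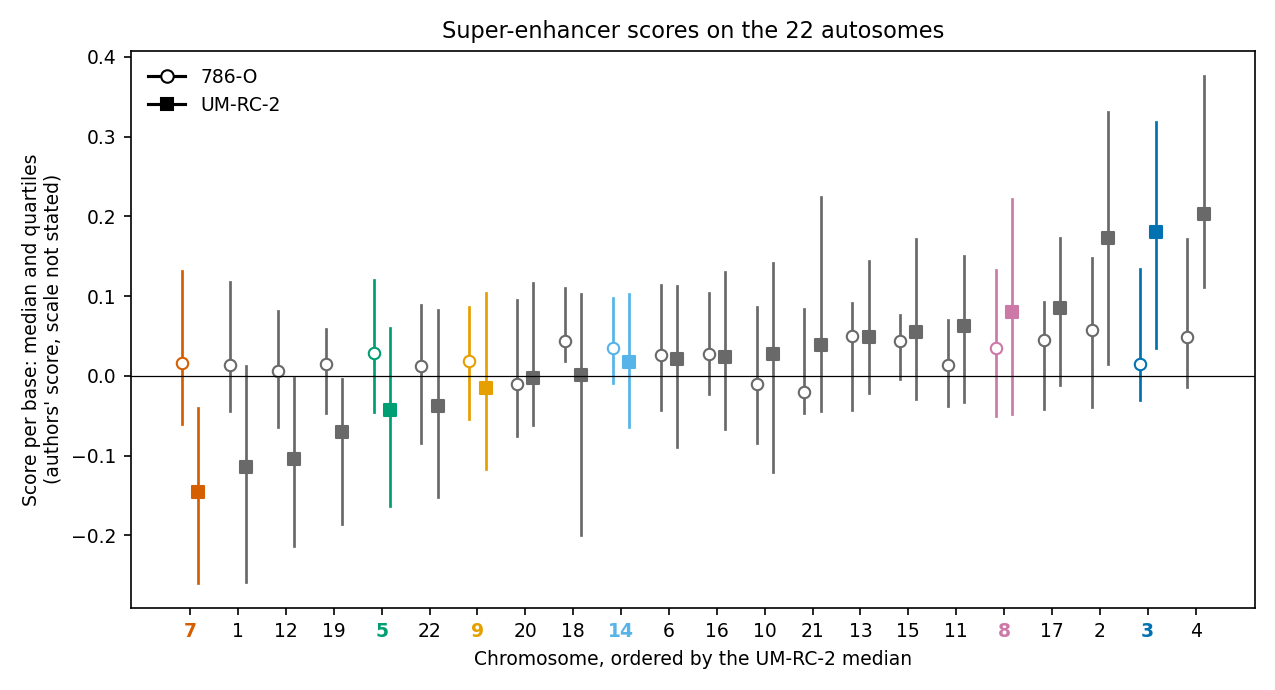
Median score per base (authors' score, scale not stated; points) and quartiles (lines) of the super-enhancers of each autosome in 786-O (open circles) and UM-RC-2 (filled squares), ordered by the UM-RC-2 median, with the 6 chromosomes in colour. UM-RC-2 medians run from -0.145 on chromosome 7 to 0.203 on chromosome 4, while 786-O medians stay between -0.0197 and 0.0579.

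In the order of UM-RC-2 medians, neighbouring chromosomes overlapped in their quartile ranges, while the ends stood apart. Chromosomes 2, 3 and 4 formed the upper end at 0.173, 0.180 and 0.203. Chromosomes 7, 1 and 12 formed the lower end at -0.145, -0.114 and -0.105. The quartile ranges of the first 3 lay above those of the last 3, and chromosomes 5, 8, 9 and 14 lay between them. Across the 22 autosomes the medians of the lines correlated at r = 0.424 (rho = 0.450), a description over chromosomes that hold between 12 and 146 regions each.

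Scores of at least 0.5 in size were rare, and their number among the members was near that among all super-enhancers. In 786-O, 7 members reached 0.5 and 2 reached -0.5, where the background over all 1924 was 0.832% and 0.416%. Together these 9 were 1.38% of the members, against 1.25% of all. In UM-RC-2, 23 reached 0.5, where the background was 3.53%, and 26 reached -0.5, where it was 3.64%. Together these 49 were 7.49% of the members, against 7.17% of all. Chromosome 3 held 10 of the 23 high scores and none of the 26 low ones, and without it 13 high scores were left. Outside the members, chromosome 2 (146 regions) had 12 high and 0 low scores in UM-RC-2, and chromosome 4 (59 regions) had 10 and 1. Chromosome 8 held 8 of the members' high scores, with 15 left without it. Chromosomes 7 and 8 each held 8 of the low scores, chromosome 5 held 5, chromosome 9 held 3 and chromosome 14 held 2.

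When each score was set against the median of its own chromosome, 14 members in UM-RC-2 lay at least 0.5 above it and 24 at least 0.5 below. On chromosome 3 the number of high scores went from 10 to 2. Most high scores there were thus less than 0.5 above the median of the whole chromosome. On chromosome 7 the low scores went from 8 to 4. On chromosome 8 the high scores went from 8 to 4 and the low ones from 8 to 10.

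**Figure D3:**
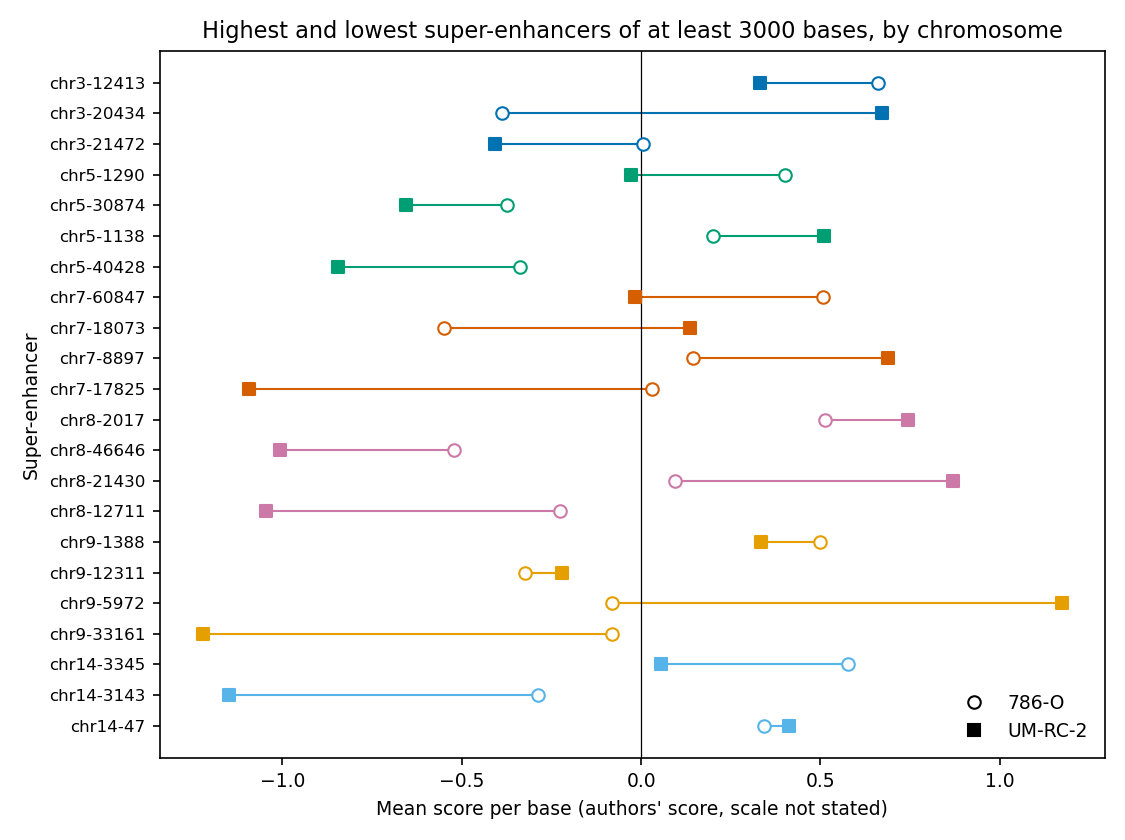
Mean score per base (authors' score, scale not stated) in 786-O (open circles) and UM-RC-2 (filled squares) of 22 super-enhancers, the highest and lowest of each chromosome in either line among regions no shorter than 3000 bases. The line joins the values of one region: 7 of the 22 cross 0, and the longest spans belong to chr9-5972 and chr9-33161.

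Single regions were named where they were highest or lowest on their chromosome in either line among those of at least 3000 bases. This gave 22 regions, of which 15 kept their sign from one of the authors' deposited tables to the other. Of all 654 members 55.2% did, and the 22 were chosen for extreme scores in these same data. Chromosome 8 held both members that reached 0.5 in size in each line. That was 2 of 654 members, where 7 of all 1924 super-enhancers did so. Chromosome 10, outside the members, also held 2 among its 96. The region chr8-2017 (6376 bases) scored 0.512 (786-O) and 0.744 (UM-RC-2) by the authors' deposited tables. The longer chr8-46646 (25952 bases) scored -0.522 and -1.01 in the same order, so both kept their sign and were larger in size in UM-RC-2.

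Elsewhere on chromosome 8 the extremes were those of UM-RC-2 more than of both lines. In the authors' deposited tables chr8-21430 scored 0.0935 (786-O) and 0.870 (UM-RC-2), and chr8-12711 scored -0.226 and -1.05. On chromosome 9, chr9-5972 scored -0.0808 (786-O) and 1.17 (UM-RC-2) by the authors' deposited tables, the second of these being the highest UM-RC-2 value of all members. The lowest was chr9-33161, at -0.0802 and -1.22 in the authors' deposited tables. These 2 regions had nearly the same score in 786-O and lay at the opposite ends of UM-RC-2.

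The 786-O extremes of chromosome 9 were shared by UM-RC-2 in sign. In the authors' deposited tables chr9-1388 scored 0.4996 (786-O) and 0.334 (UM-RC-2), and chr9-12311 scored -0.325 and -0.221. On chromosome 14, chr14-3143 (12602 bases) was lowest in both lines, and the authors' deposited tables gave it -0.286 (786-O) and -1.15 (UM-RC-2). The highest of that chromosome differed between lines. It was chr14-3345 in 786-O (0.578, against 0.0548 in UM-RC-2) and chr14-47 in UM-RC-2 (0.411, against 0.343 in 786-O), by the authors' deposited tables.

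On chromosome 3, among regions of at least 3000 bases, chr3-20434 (10372 bases) was the lowest in 786-O, at -0.389, in the authors' deposited tables. It was also the highest of these in UM-RC-2, at 0.673. The shorter chr3-170 (1504 bases) scored 0.936 there in the authors' deposited tables. The highest 786-O score of all members belonged to chr3-12413, at 0.661, with 0.331 in UM-RC-2, by the same authors' deposited tables. The lowest UM-RC-2 score of the chromosome was that of chr3-21472, at -0.407, and the 786-O score of this region in the authors' deposited table was 0.00534. Chromosome 3 had its lowest UM-RC-2 score closer to 0 than any of the other 5 chromosomes.

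On chromosome 7 the 786-O extremes did not carry over. The authors' deposited tables gave chr7-60847 0.507 (786-O) and -0.0157 (UM-RC-2), and gave chr7-18073 -0.549 and 0.137. The UM-RC-2 extremes were chr7-8897, at 0.145 (786-O) and 0.689 (UM-RC-2), and chr7-17825, at 0.0301 and -1.09, in the authors' deposited tables. On chromosome 5, 3 of the 4 extremes among regions of at least 3000 bases kept their sign. In the authors' deposited tables chr5-30874 scored -0.374 (786-O) and -0.656 (UM-RC-2), chr5-40428 scored -0.337 and -0.844, and chr5-1138 scored 0.202 and 0.510. The highest in 786-O within this length limit, chr5-1290, scored 0.402 there and -0.0277 in UM-RC-2 in the authors' deposited tables. Shorter regions of chromosome 5 reached -0.395 and 0.597 in 786-O.

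Region by region, the lines shared signs a little more often than the shares of positive scores alone would give. Of the 654 members, 361 (55.2%) had the same sign in both tables, 209 positive and 152 negative, where independent signs would give 49.8%. On the other autosomes 740 of 1255 (59.0%) did, where independent signs would give 50.6%. Scores correlated across the members at r = 0.263 (rho = 0.223), and across the others at r = 0.368 (rho = 0.292). Regions share their libraries, and none of these values was tested.

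The chromosomes differed in how far the lines went together. Chromosome 14 had the same sign in 24 of 34 regions (70.6%, against 52.1% from independent signs) and r = 0.591 (rho = 0.601). Chromosome 8 had it in 76 of 125 (60.8%, against 54.1%) and r = 0.419 (rho = 0.322). Chromosome 3 had it in a similar share, 72 of 117 (61.5%, against 57.6%), with r = 0.107. Chromosome 7 had the same sign in 64 of 122 (52.5%, against 46.0%) with r = 0.0872. Chromosome 5 had it in 65 of 130 (where independent signs would give 47.8%) with r = 0.356. Chromosome 9 was the one of the 6 below the independent share, at 60 of 126 (47.6%, against 49.0%), with r = 0.204. The order by sign share was thus not the order by r. A shift of all regions of a chromosome leaves its r unchanged. With each score set against its chromosome's median, r over the 654 members was 0.271, close to the 0.263 of the scores as deposited.

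**Figure D4:**
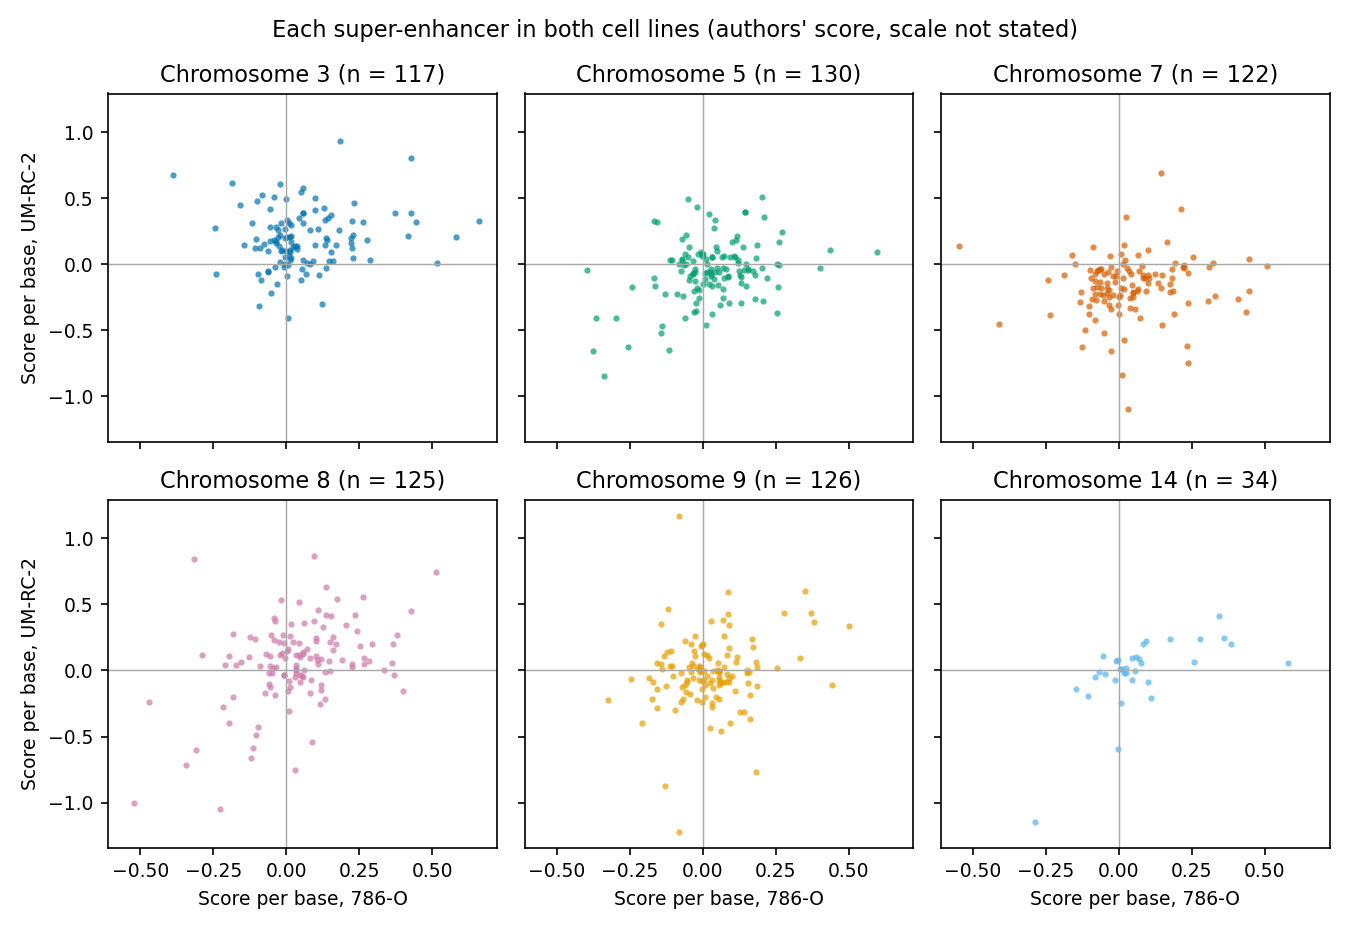
Each point is a super-enhancer, with its mean score per base (authors' score, scale not stated) in 786-O on the x axis and in UM-RC-2 on the y axis, 1 panel per chromosome. Points of chromosome 3 lie mostly above 0 in UM-RC-2 and those of chromosome 7 mostly below, while along the x axis both are centred near 0; r is 0.591 on chromosome 14 and 0.0872 on chromosome 7.

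The members were shorter than the other super-enhancers and shorter ones scored slightly higher. Their median length was 14327 bases (quartiles 9660 and 23373), against 17542 on the other autosomes, and 65 were under 3000 bases, against 64 of the 1255 others. Together they covered 11622 kb. Split by length into 3 equal groups, the shortest regions (1088 to 11288 bases) had median scores of 0.0489 (786-O) and 0.0223 (UM-RC-2), while the longest (20258 to 73354 bases) had 0.00997 and -0.0284. Length and score correlated over the members at rho = -0.152 (786-O) and rho = -0.135 (UM-RC-2), weak values given as a description. Chromosome 14 alone had a longer median length than the other autosomes, at 21774 bases. It alone had a positive rho, 0.116 in UM-RC-2, with -0.0170 in 786-O.

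Chromosomes 3 and 7, which lay at opposite ends of the UM-RC-2 order, had median lengths of 13382 and 14252 bases. At the same upper end, chromosomes 2 and 4 had 14252 and 14238 bases. At the lower end, chromosomes 1 and 12 were longer, at 18012 and 17428 bases, and whether length bears on their scores was not tested. With each region weighted by its length, the mean score in UM-RC-2 was 0.160 on chromosome 3, 0.0431 on chromosome 8, 0.0201 on chromosome 14, -0.0423 on chromosome 9, -0.0823 on chromosome 5 and -0.177 on chromosome 7. The order of the 6 was the same as by the medians.

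RNA of UM-RC-2 gave another readout by chromosome, for genes placed by name and not tied to any super-enhancer. The libraries held 16230291 to 50027348 counts, and the libraries of replicate 2 stood far apart from those of replicate 1, so changes were taken within each replicate number (VHL against VEC, log2). PAX8 and CDH6, markers of renal epithelium, lay at 40.8 to 75.9 and 144 to 266 CPM (counts scaled to library size). PAX2, another, was low, at 1.34 (VEC) and 1.18 (VHL) CPM in replicate 1 and 9.28 and 5.66 CPM in replicate 2. CA9, a marker of clear cell carcinoma, stood at 67.5 (VEC) and 1.55 (VHL) CPM in replicate 1 and 61.8 and 1.40 CPM in replicate 2. CD3E, PECAM1 and CDH5 had 0 counts in all 4 libraries. The blood cell marker PTPRC had 0 counts in replicate 1, and 72 (VEC) and 63 (VHL) in replicate 2. VHL itself was higher in the VHL library of both pairs, by 1.98 and 0.77 on the log2 scale.

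The median RNA change of chromosome 7 was the lowest of the autosomes in pair 1 but not in pair 2. In pair 1 its 541 protein-coding genes averaging 20 counts or more had a median change of -0.15, ranked 22, and 33.6% of them were higher in VHL, against 44.7% of all 11302 such genes. In pair 2 its 646 genes had a median of -0.015, ranked 16, with 47.5% higher in VHL against 54.6% of all 12915. Chromosome 3 had medians of -0.044 (ranked 10) and 0.12 (ranked 6). Chromosome 8 had -0.033 and 0.13, chromosome 5 had -0.032 and 0.15, chromosome 9 had -0.0087 and 0.019, and chromosome 14 had -0.018 and 0.10, beside -0.045 and 0.043 over all such genes. Across 22 autosomes the median UM-RC-2 super-enhancer score and the median RNA change correlated at r = 0.2998 (rho = 0.130) in pair 1 and r = 0.476 (rho = 0.435) in pair 2, values with no test. The 786-O medians, set beside the same UM-RC-2 RNA, gave r = -0.045 (rho = -0.00395) in pair 1 and r = 0.33 (rho = 0.42) in pair 2. The rho of pair 2 was thus not particular to the scores of UM-RC-2. Since the order of the libraries in the score is not known, the sign of these correlations holds only for the scores as deposited and would turn with a score made in the other order.

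**Figure D5:**
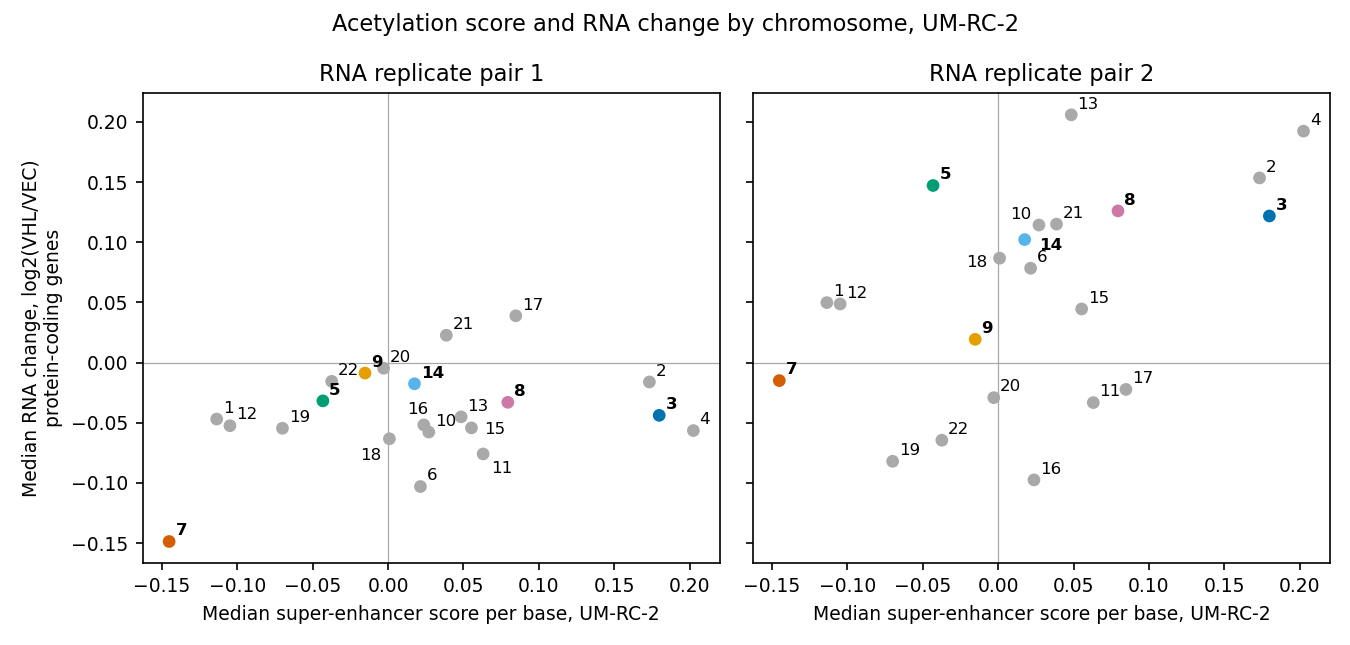
Median UM-RC-2 super-enhancer score per base (x axis, authors' score, scale not stated) and median RNA change, log2 of VHL over VEC, of protein-coding genes (y axis) for each autosome, in RNA replicate pair 1 (left) and pair 2 (right). Chromosome 7 is lowest on both axes in pair 1, at -0.145 and -0.15, and r over the 22 autosomes is 0.2998 in pair 1 and 0.476 in pair 2.

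In the group-only fit, 0 of the 6504 genes tested on the 6 chromosomes passed in edgeR's quasi-likelihood test, as 0% of all 24417 genes did, and 10 had an unadjusted p under 0.05. DESeq2's Wald test called 5 of them (0.0769%), all lower in VHL, where it called 6 of all 24417 genes (0.0246%). The 5, named after their values were seen, were CA9 (chromosome 9), STC1 (chromosome 8), UBE2QL1 (chromosome 5), CP and TMEM45A (both chromosome 3). With replicate number as a blocking term, edgeR called 211 of the 6504 (3.24%), 57 higher and 154 lower in VHL, where 3.1% of all genes were called, 0.749% higher and 2.35% lower. By chromosome the calls were 46 on chromosome 3, 43 on chromosome 5, 34 on chromosome 7, 37 on chromosome 8, 31 on chromosome 9 and 20 on chromosome 14, or between 2.63% and 4.17% of the genes tested. Lower genes outnumbered higher ones on each of the 6, from 27 of 46 on chromosome 3 to 28 of 34 on chromosome 7. They also did so on every other autosome, with 389 of 506 calls lower there together. On protein-coding genes alone, a setting added after the data were seen, the blocked edgeR fit called 270 of 3544 (7.62%), 99 higher and 171 lower. Over all 13692 such genes it called 7.1%, 2.51% higher and 4.59% lower. In this fit chromosome 3 had 27 calls higher and 27 lower, and chromosome 14 had 9 and 10.

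Genes of renal carcinoma on these chromosomes, from a list of general knowledge chosen with earlier results of these data known, were also read. HIF1A on chromosome 14, the alpha subunit of hypoxia-inducible factor 1, stood at 112 CPM (VEC) and 213 CPM (VHL) in replicate 1, and at 41.5 and 100.2 CPM in replicate 2. It was higher in VHL in both pairs, by 0.93 and 1.27 on the log2 scale (group-only adjusted p = 0.999991, blocked adjusted p = 0.000103, edgeR). SLC1A1, the glutamate and aspartate transporter on chromosome 9, was lower in both, by -2.41 and -2.24 (group-only adjusted p = 0.999991, blocked adjusted p = 1.35e-17, edgeR). CDKN2A and CDKN2B, inhibitors of cell cycle kinases on the short arm of chromosome 9, were all but undetected. CDKN2A had 1 count in VEC replicate 2 and 0 in the other 3 libraries, where 0 counts allow up to 0.161 CPM in the shallowest, and CDKN2B had 0 in replicate 1, and 8 (VEC) and 4 (VHL) in replicate 2.

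VHL on chromosome 3, from the same list, was called by the blocked fit but not by the group-only fit. Its blocked log2 change was 1.36 (blocked adjusted p = 4.63e-07, group-only adjusted p = 0.999991, edgeR). In counts per symbol, reads of the VHL construct in the VHL cells cannot be told apart from reads of the chromosome 3 gene. VHL is among the chromosome 3 calls of the blocked fit given above. The remaining 8 genes were not called by either fit. On chromosome 3, PBRM1 and SETD2, a chromatin remodelling subunit and a histone methyltransferase, had differences of -0.032 and 0.26, and of 0.32 and 0.40, in the pairs. BAP1, a deubiquitinase, had -0.071 and 0.029. On chromosome 7 the receptor genes MET (0.16 and 0.49) and EGFR (-0.32 and -0.26) differed in sign. MYC on chromosome 8 had 0.37 and 0.16, and SQSTM1 on chromosome 5 had 0.26 and 0.16. TERT on chromosome 5 had at most 58 counts in a library and differences of 1.05 and -0.44. Blocked adjusted p-values of these 8 genes lay between 0.553 and 0.997 (edgeR).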

How the data were processed

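Members and gene lists were chosen with earlier results of these data known. H3K27ac values are the authors' deposited comparison scores per region on hg19, 1 table per cell line, read as the mean score per base. Per the submitters' processing notes, deepTools, HOMER and featureCounts were used, with no role or version given. The other deposited columns, region length and covered bases, were equal in all 1924 regions, so the mean over covered bases is the same score. The broad regions (72243 per table) name no chromosome and gave only a table median. RNA values are the authors' deposited raw counts per gene symbol, from hg19 alignments per the file headers; strand use is not given in the sources used here.

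Scores were summarised by chromosome with pandas 2.3.3, with no test because each group had 1 library. Depth of the ChIP-seq is unknown. Super-enhancers were named by rule: the highest and lowest of each chromosome and line among those of at least 3000 bases, and any of 0.5 in size in both lines. RNA was analysed with edgeR 4.0.16 in R 4.3.3: filterByExpr kept 24417 of 43682 symbols, and glmQLFTest after TMM was two-sided with Benjamini-Hochberg adjustment at 0.05. DESeq2 1.42.0 was an alternative. Of the listed renal carcinoma genes, 1 is not reported here. CPM used TMM library sizes, and pair changes a prior count of 2. Symbols were placed on chromosomes with the RefSeq table of GRCh38.p14, which matched 42752 of them (97.9%). Deviations from the group means correlated at 0.978 between same-numbered libraries, and alignment names differ between numbers per the file headers, so the number was treated as a batch and its blocked fit printed beside the group-only fit. The labels do not say that it pairs cultures, so p-values measure only the spread between these libraries. The edgeR fits and the chromosome summaries were tested on simulated data.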

Additional observations from a re-analysis of the deposited data

Results flagged for a closer look

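Scores of opposite sign in the lines were picked out; each rests on 1 library per group, and no difference was tested. The median of the 6 chromosomes together was 0.0256 (786-O) and -0.00181 (UM-RC-2). By chromosome it was 0.0293 and -0.0432 on chromosome 5, 0.0164 and -0.145 on chromosome 7, and 0.0181 and -0.0153 on chromosome 9. Chromosome 7 alone of these lay beyond 0.1 in size in a line. With each table centred on the median of its broad regions, none of these 4 pairs of medians differed in sign: they were -0.0266 and -0.0358 for the 6 chromosomes, -0.0229 and -0.0772 on chromosome 5, -0.0358 and -0.179 on chromosome 7, and -0.0341 and -0.0492 on chromosome 9.

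Of the 22 super-enhancers named, 7 had opposite signs in the authors' deposited tables (786-O first): chr3-20434 at -0.389 and 0.673, chr3-21472 at 0.00534 and -0.407, and chr5-1290 at 0.402 and -0.0277. On chromosome 7 the authors' deposited tables gave chr7-60847 0.507 and -0.0157, chr7-18073 -0.549 and 0.137, and chr7-17825 0.0301 and -1.09. The last was chr9-5972, at -0.0808 and 1.17 in the authors' deposited tables. In chr3-20434 alone both scores were above 0.2 in size. The 786-O scores of chr3-21472 and chr7-17825 lay below 0.0522, the median of the broad regions in 786-O. With that median as the zero, these regions would be negative in both lines.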

How the results depend on the processing

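Using the mean over covered bases changed no value, by construction, and keeping only super-enhancers of at least 3000 bases changed no direction. Centring on the median of the table's broad regions (0.0522 in 786-O, 0.0339 in UM-RC-2) turned the 786-O medians it was run on negative: -0.0266 for the 6 chromosomes (41.6% positive), -0.0259 for the other autosomes (40.0% positive), and -0.0369, -0.0229, -0.0358, -0.0177, -0.0341 and -0.0176 for chromosomes 3, 5, 7, 8, 9 and 14. So the sign of these 786-O medians depends on the zero chosen. In UM-RC-2 it gave -0.0358 for the 6 chromosomes (43.0% positive), -0.0172 for the other autosomes (46.1% positive), -0.0772 for chromosome 5 and -0.0164 for chromosome 14; chromosomes 3 and 8 stayed above 0 and chromosome 7 below.

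The pooled UM-RC-2 median depended on which chromosomes were pooled. It was -0.0347 without chromosome 3 (41.7% positive), 0.00916 without chromosome 5 (51.5%), 0.0346 without chromosome 7 (57.0%) and 0.00460 without chromosome 9 (50.8%). Without chromosome 8 the positive share was 45.0%. Scores of at least 0.5 in UM-RC-2 numbered 13 without chromosome 3, 15 without chromosome 8 and 14 when centred on chromosome medians, a setting added after the data were seen. In 786-O they numbered 4 after broad-region centring or without chromosome 3, and scores of at most -0.5 numbered 1 without chromosome 7 or without chromosome 8.

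RNA calls on the 6 chromosomes numbered 0 with group as the only term, 211 with the replicate block, 270 with the replicate block on protein-coding genes alone (7.62%, where 7.1% of all such genes were called; added after the data were seen) and 5 in DESeq2 (0.0769%, where 0.0246% of all genes were called). The median log2 change over the 6504 genes was -0.03. It was -0.082 with DESeq2 size factors and -0.082 in DESeq2, and -0.58 to 0.58 when 1 library was left out, where the fit compares unequal mixes of replicate numbers. Leaving out 1 library also turned the sign of PBRM1 (-0.13 to 0.41), BAP1 (-0.78 to 0.77), SQSTM1 (-0.45 to 0.84), TERT (-0.92 to 1.39) and MET (-0.25 to 1.01), none of them called. Depth limits CDKN2A, CDKN2B and TERT.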

Other observations

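The 15 super-enhancers of the X chromosome belong to neither side of the comparison. In UM-RC-2, 14 of them (93.3%) were positive, around a median of 0.145 (quartiles 0.0849 and 0.350), while in 786-O, 6 (40.0%) were positive around -0.0187. In the first line they thus lay beside chromosomes 2, 3 and 4, and in the other near 0.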
